A study of Mus musculus with 6 samples.

Results

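The mir-378 family comprises the miRNA precursors mir-378a, mir-378b, mir-378c and mir-378d, which were chosen by name from the deposited table of mouse miRBase precursors. All 4 names were found among the 1006 entries of the table. The family was described in 6 small RNA libraries, namely 1 of mouse primary osteoblasts (OB), 1 of mouse primary bone marrow cells (BM), 2 of Myo-EVs and 2 of FFSS-Myo-EVs. Myo-EVs are the extracellular vesicles that C2C12 cells, a mouse myoblast line, released into medium with vesicle-depleted serum over 48 hr. FFSS-Myo-EVs are the vesicles of C2C12 cells kept on an orbital shaker, which exposes them to fluid flow shear stress (FFSS), for the same time. The labels give a mixed background for all samples, the C2C12 vesicles included, with 81.25% from C57BL/6J and 18.75% from 129/SvJ, and an age of 8 to 10 weeks for OB and BM. The methods describe osteoblasts from the calvariae of newborn mice, pooled from several animals and used after passage, and marrow from the tibiae of a single male mouse. The growth protocol in the labels is the same for all samples and names vitamin D3 and dexamethasone but not FFSS, which appears only in the titles and in the stress field of the FFSS-Myo-EV libraries.

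A miRNA is cut from the hairpin of its precursor and guides silencing of mRNAs that pair with its seed, bases 2 to 8 of the mature form. The main member, mir-378a, lies in an intron of Ppargc1b, the gene of PGC-1β, a coactivator that raises the expression of genes for mitochondrial biogenesis and oxidative metabolism. It is known for roles in energy metabolism, in the differentiation of myoblasts and in osteoblasts. The paralogs mir-378b, mir-378c and mir-378d arise from other loci and have been studied far less.

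The mature sequences of mir-378b, mir-378c and mir-378d are shown because their likeness limits how far reads can be assigned to one member. They were taken from RefSeq on GRCm38.p6, in which 3 of the 4 members had an entry here, and the seed is in capitals.

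mmu-miR-378b: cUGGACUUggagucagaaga

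mmu-miR-378c: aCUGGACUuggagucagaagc

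mmu-miR-378d: aCUGGCCUuggagucagaaggu

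The mature miR-378c and miR-378b differ by C21A, counted from the first base of miR-378c, and miR-378b lacks the first base of miR-378c, so that 19 bases are the same and the seed is moved by 1 base, from CUGGACU to UGGACUU. The mature miR-378d differs from miR-378c by A6C, which lies in the seed, by C21G and by an added U at its 3′ end. The 3 seeds thus differ. None of them was found at bases 2 to 8 of another mature miRNA among the 1738 mature forms of the RefSeq table. That table has no entry for mir-378a, so the seed of the main member was not compared. With the precursor of mir-378a, the mature miR-378c has a run of 20 of its 21 bases in common, and miR-378b a run of 19 of its 20 bases. Runs of this length take in bases 2 to 8, so the precursor of mir-378a holds the bases of both seeds. The longest such run of miR-378d was 15 of 22 bases with the precursor of mir-378a and 14 with those of mir-378b and mir-378c. A read that covers only such a run therefore matches both members, whereas the base at position 6 sets miR-378d apart from miR-378c.

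The hairpins of these 3 members are shown with the mature form in capitals, because it does not lie in the same arm of each.

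mir-378b: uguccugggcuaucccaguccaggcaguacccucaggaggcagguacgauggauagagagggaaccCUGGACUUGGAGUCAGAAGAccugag

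mir-378c: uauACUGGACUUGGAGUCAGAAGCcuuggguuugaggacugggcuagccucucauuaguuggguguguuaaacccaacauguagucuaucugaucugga

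mir-378d: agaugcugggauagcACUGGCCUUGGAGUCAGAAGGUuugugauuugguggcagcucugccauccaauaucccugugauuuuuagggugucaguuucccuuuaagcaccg

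In the hairpin of mir-378b the mature form takes bases 67 to 86 of 92, near the 3′ end, and in those of mir-378c and mir-378d it takes bases 4 to 24 of 99 and 16 to 37 of 110, near the 5′ end. The 3′ end of one hairpin and the 5′ end of the others thus hold nearly the same bases. On GRCm38, mir-378b lies on the plus strand at chr11:88352773-88352864, in an intron of Msi2 on the opposite strand. The entry mir-378c lies on the minus strand at chr14:46954830-46954928, in an intron of Samd4 on the opposite strand, and mir-378d on the minus strand at chr10:126710282-126710391, with no other annotated gene in the GENCODE M21 annotation.

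The EV libraries held 2414132 to 3029524 counts, OB 5181296 and BM 6092460. The normalized expression value is the count multiplied by 1 constant per library, from 0.397 in BM to 1.20 in the second Myo-EV library, and mir-21a made up 44.9% of all counts for BM against 20.2% to 23.3% in the other libraries. The blood cell list (4 of 5 entries found under the names used) summed to 11281.2 in BM, 126.5 in OB, 11.0 and 9.6 in Myo-EVs, against 43.9 and 34.3 with FFSS, and was led by mir-223, at 9710.3 in BM and 122.0 in OB. The mesenchymal list (6 of 6) summed to 536435.8 in OB, 335111.9 to 437712.5 in the EVs and 22199.3 in BM. The muscle list (6 of 6) summed to 118.9 in OB, 71.9 in BM and 2052.9 to 2641.9 in the EVs, where nearly all of it was mir-206 (1968.5 to 2610.0), whereas mir-1a-1 had 0 counts in the 4 EV libraries, which allows up to 3 counts in each. The serum list (4 of 5) summed to 2250.1 in BM, 148.6 in OB and 164.6 to 253.0 in the EVs.

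The family was led by mir-378a in every library, followed by mir-378c, mir-378d and mir-378b, and all 4 members were highest in BM. This order held in each of the 6 libraries and each step was larger than the counting error. Their summed share of the library was 0.825% in BM, 0.0953% in OB and 0.136% and 0.180% for Myo-EVs, while FFSS-Myo-EVs had 0.137% and 0.152%. OB and BM rest on 1 library each, so their values have no replicate error and no difference with them was tested. The 95% intervals of levels and shares are exact Clopper-Pearson intervals and show counting error alone, since reads amplified by PCR and lacking molecular identifiers do not each stand for a molecule. In bulk RNA, a smaller share of cells that express a miRNA and less of it per cell cannot be told apart.

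The normalized expression value of mir-378a was 2460.8 in OB (95% interval 2389 to 2534, 4456 counts), 17682.5 in BM (17519 to 17847, 44520 counts) and 3591.7 and 4808.7 for Myo-EVs, while FFSS-Myo-EVs had 3781.6 and 4051.3. The BM value was thus far above the rest, the OB value was the lowest, and the FFSS-Myo-EV libraries lay between the 2 Myo-EV libraries. Among the 1006 entries, mir-378a ranked 16 in BM, 76 in OB and 57 to 67 in the EVs. The GENCODE annotation of GRCm38 places it on the minus strand of chromosome 18 from 61397835 to 61397900, in an intron of Ppargc1b on the same strand, and lists a predicted miRNA gene, Gm25301, on the opposite strand of the same place.

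The value of mir-378c was 205.4 in OB (185.1 to 227.4, 372 counts), 1840.5 in BM (1788 to 1894, 4634 counts) and 243.9 and 317.4 for Myo-EVs, while FFSS-Myo-EVs had 282.9 and 307.9. Its EV libraries were all above OB, and the FFSS-Myo-EV pair again lay within the Myo-EV range. The value of mir-378d, the member with the distinct seed base, was 54.1 in OB (43.9 to 66.0, 98 counts), 406.7 in BM (382.2 to 432.4, 1024 counts) and 75.3 and 77.8 for Myo-EVs, while FFSS-Myo-EVs had 53.8 and 98.6. Here the FFSS-Myo-EV libraries were the lowest and the highest of the 4 EV libraries, and the first of them was level with OB. The value of mir-378b was 7.7 in OB (14 counts), 37.3 in BM (94 counts) and 9.0 and 4.8 for Myo-EVs (9 and 4 counts), while FFSS-Myo-EVs had 4.0 and 11.1 (4 and 10 counts). At this depth, the intervals of mir-378b overlapped between OB and the 4 EV libraries, and the interval of BM (30.2 to 45.7) lay above them.

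**Figure D1:**
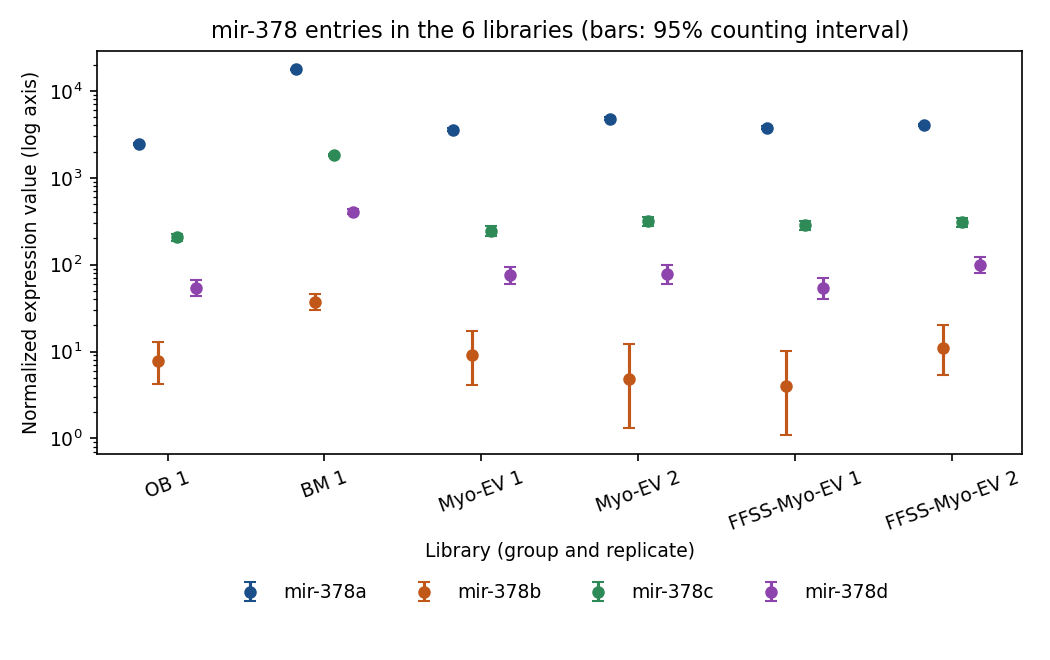
Normalized expression value (log axis) of the 4 mir-378 entries in each of the 6 libraries, with points for the deposited values and bars for the 95% counting interval. Each member is highest in BM, where mir-378a reaches 17682.5, and the order mir-378a, mir-378c, mir-378d, mir-378b is the same in every library.

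The first question was how the family differs between the cells that could receive the vesicles and the vesicles themselves. BM was 7.19 times OB for mir-378a (counting interval 6.97 to 7.41), 8.96 times for mir-378c (8.06 to 9.99), 7.52 times for mir-378d (6.11 to 9.35) and 4.84 times for mir-378b (2.75 to 9.20). All 4 members were thus at least 2-fold higher in BM than in OB, which held for 26.4% of the 443 entries with a mean of at least 10 over the 6 libraries. The median ratio of BM to OB over those entries was 1.08, and 40 of the 443 had a ratio at or above that of mir-378a. The entry mir-378b reached the mean of 10 only through BM (37.3). Elsewhere its means were 6.9 in Myo-EVs and 7.55 in FFSS-Myo-EVs, with 7.7 in OB. Its place among the 443 entries, here and against the EVs, thus rests on its BM value. Because mir-378a, mir-378b and mir-378c can share reads, the members are not independent of each other. The blood cell list was also higher in BM than in OB, by the sums given above, and its part in these ratios was not tested.

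BM was 4.21 times the mean of Myo-EVs for mir-378a (3.68 and 4.92 against the single libraries), 6.56 times for mir-378c (5.80 and 7.55), 5.31 times for mir-378d (5.23 and 5.40) and 5.41 times for mir-378b (4.14 and 7.77). Against FFSS-Myo-EVs, BM was 4.51 times for mir-378a (4.36 and 4.68), 6.23 times for mir-378c (5.98 and 6.51), 5.34 times for mir-378d (4.12 and 7.56) and 4.94 times for mir-378b (3.36 and 9.33). The difference between BM and the EVs was therefore larger than the spread between the EV libraries in every member. A ratio of at least 2 was found for 35.4% of the 443 entries against Myo-EVs and for 30.5% against FFSS-Myo-EVs, and the median ratio was 0.656 and 0.644, respectively.

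The EVs stood closer to OB. Myo-EVs were 1.71 times OB for mir-378a (1.46 and 1.95 for the single libraries), 1.37 times for mir-378c (1.19 and 1.55), 1.41 times for mir-378d (1.39 and 1.44) and 0.896 times for mir-378b (0.623 and 1.17). FFSS-Myo-EVs were 1.59 times OB for mir-378a (1.54 and 1.65), 1.44 times for mir-378c (1.38 and 1.50), 1.41 times for mir-378d (0.994 and 1.82) and 0.981 times for mir-378b (0.519 and 1.44). No member reached 2-fold over OB, compared with 35.7% of the 443 entries in Myo-EVs and 35.4% in FFSS-Myo-EVs. For mir-378a the ratio fell to 1.39 in Myo-EVs and 1.21 in FFSS-Myo-EVs once the libraries were scaled by median-of-ratios, so the size of this difference depends on the scaling.

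**Figure D2:**
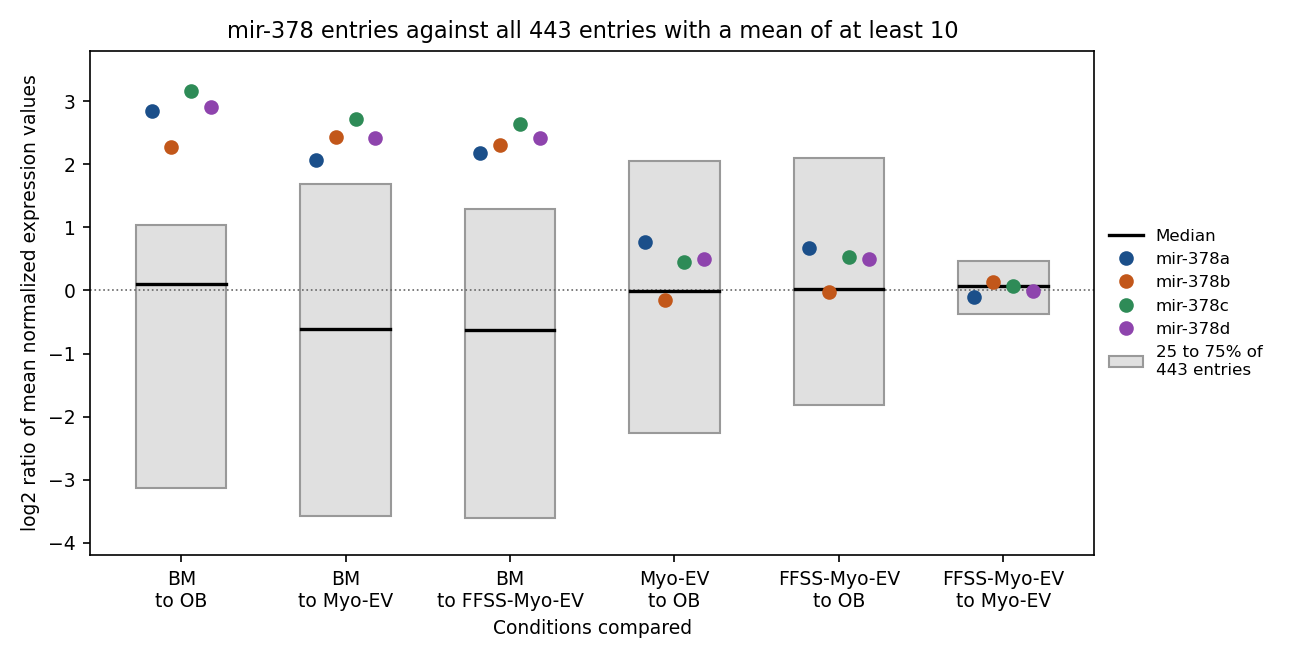
Log2 ratio of the mean normalized expression values for 6 pairs of conditions, with coloured points for the 4 mir-378 entries, grey boxes for the middle 50% and black lines for the median of the 443 entries with a mean of at least 10. In the 3 comparisons with BM the 4 points lie above the box, and in the other 3 they lie within it. The entry mir-378b reached the mean of 10 only through BM.

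The second question was whether FFSS to C2C12 cells changed the family in the EVs. Counts of the 4 EV libraries were scaled by TMM and compared by edgeR's quasi-likelihood method, with Benjamini-Hochberg adjustment over the 354 entries that had a mean normalized value of 10 or more, a filter that 3 members passed. No source states that the 2 libraries of a group came from separate cultures, so the p-values measure the spread between these libraries, which may be technical. The fit gave no weight to an entry's own spread (its prior degrees of freedom were infinite) and used a spread estimated across the 354 entries, so the p-value of a member does not rest on how far its own replicates differed. None of the 3 tested members was called, against 12.1% of the tested entries called higher and 18.4% called lower in FFSS-Myo-EVs. The number of the 3 with an unadjusted p below 0.05 was 0 in edgeR, and DESeq2 and limma also called 0 of the 3. Among the blood and serum markers, mir-451a and mir-122, both at low level, were called higher. The former was at 3.0 and 4.8 without and at 25.9 and 17.7 with FFSS (log2 fold change 2.40, adjusted p = 6.79e-05 in edgeR). The latter was at 6.0 and 4.8 without and at 17.9 and 15.5 with FFSS (1.49, adjusted p = 0.0132). In the same edgeR test, the more abundant mir-486a (-0.04, adjusted p = 0.942) and mir-486b (0.04, adjusted p = 0.935) were not called. The entries mir-223, mir-150 and mir-144 were under the filter. The part of these markers in the differences between the EV groups was not tested.

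After TMM scaling, the level of mir-378a in CPM, the count relative to the effective library size, was 1331 and 1644 for Myo-EVs, while FFSS-Myo-EVs had 1280 and 1277. On this scale both FFSS-Myo-EV libraries were below both Myo-EV libraries, which were far apart, whereas on the authors' scale the groups overlapped, with means of 4200.2 ± 861 (SD, n = 2) and 3916 ± 191 (SD, n = 2). Separate groups were found for 58.5% of the tested entries after TMM scaling and for 60.5% on the authors' scale. The log2 fold change of mir-378a was -0.22 (standard error 0.13, 95% interval -0.47 to 0.04, adjusted p = 0.209 by edgeR). The value depended on which Myo-EV library was used. Without the first of them the log2 fold change was -0.43, and without the second it was 0.02. In both of these fits a single Myo-EV library was set against the FFSS-Myo-EV pair, which alone supplied the spread. The lone library was assumed to vary like that pair, and the distance between the Myo-EV libraries was not taken in. No p-value is therefore given for these fits. Between TMM and the authors' scaling, the median log2 fold change moved up by 0.12, and relative to the median of the tested entries the log2 fold change of mir-378a was -0.19 with either scaling.

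For mir-378c, the TMM-scaled CPM was 90.4 and 109 for Myo-EVs, while FFSS-Myo-EVs had 95.8 and 97.0, so the latter lay within the range of the former. The log2 fold change of mir-378c was -0.04 (standard error 0.18, 95% interval -0.39 to 0.30, adjusted p = 0.903 by edgeR), and its sign depended on the scaling. The entry mir-378d was at 27.9 and 26.6 CPM for Myo-EVs, while FFSS-Myo-EVs had 18.2 and 31.1 CPM. Its log2 fold change was -0.15 (standard error 0.30, 95% interval -0.73 to 0.43, adjusted p = 0.771 in the same edgeR test), and the FFSS-Myo-EV libraries differed more from each other than the groups did. The intervals of the 3 members leave room for changes in either direction, and that of mir-378d is the widest. With 4 to 10 counts per EV library, mir-378b was under the filter, and with no filter its log2 fold change was -0.12 (adjusted p = 0.936 in edgeR). With the counts of the 4 members summed into 1 feature, the log2 fold change was -0.14 (adjusted p = 0.468 in edgeR). The median over the tested entries was 0.04 in that fit, against -0.02 in the main fit. Relative to the median of its own fit, the sum was at -0.18 and mir-378a in the main fit at -0.19.

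**Figure D3:**
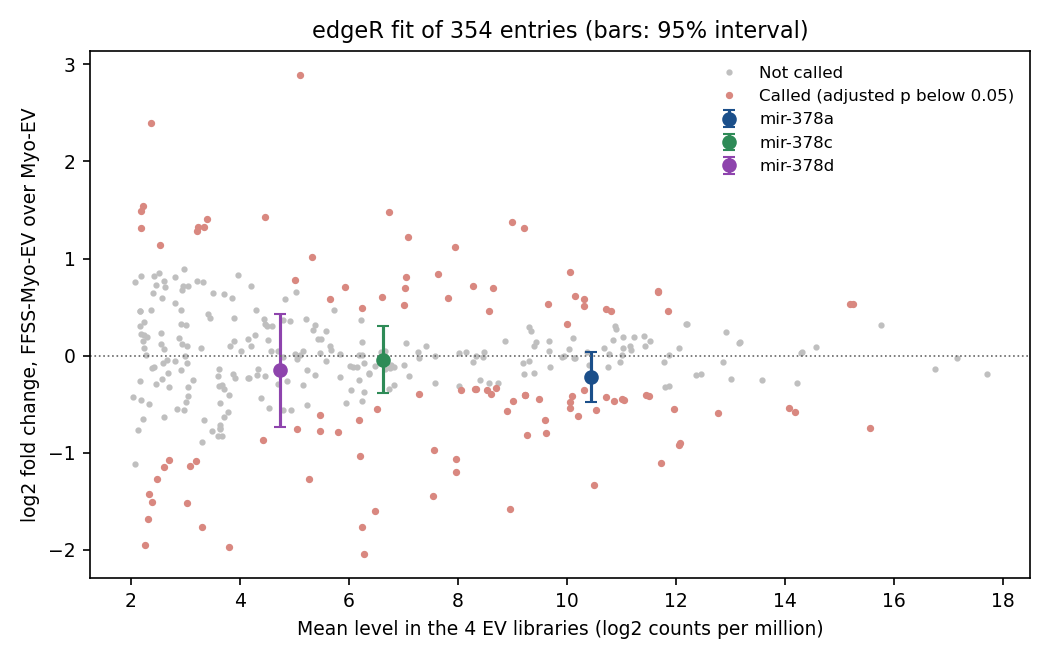
Log2 fold change of FFSS-Myo-EVs over Myo-EVs against the mean level in the 4 EV libraries for the 354 entries of the edgeR fit, with called entries in red, the others in grey, and the 3 tested mir-378 entries in colour with 95% intervals. The interval of each of the 3 members includes 0, and it widens from mir-378a to mir-378d.

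The makeup of the family differed less than its level. The share of mir-378a in the summed counts of the 4 members was 88.6% in BM (95% interval 88.3 to 88.8), 90.2% in OB (89.3 to 91.0) and 91.6% and 92.3% for Myo-EVs, while FFSS-Myo-EVs had 91.7% and 90.7%. The share was thus lowest in BM, and its interval there did not reach that of any other library. Among the paralogs, mir-378c had its highest share in BM, with 9.22% (8.97 to 9.47), 7.53% in OB (6.81 to 8.30) and 6.22% and 6.09% for Myo-EVs, while FFSS-Myo-EVs had 6.86% and 6.89%. For each 100 counts of mir-378a there were 10.4 counts of mir-378c in BM, 8.35 in OB and 6.60 to 7.60 in the EVs. Both FFSS-Myo-EV libraries had a higher share of mir-378c than both Myo-EV libraries, but the intervals of the 4 libraries overlapped. Such a separation has no background for shares here, and on TMM-scaled levels it was found for 58.5% of the tested entries. Pooled, the shares were 6.15% (5.65 to 6.69) in Myo-EVs and 6.88% (6.34 to 7.45) in FFSS-Myo-EVs. The pooled intervals join the reads of both libraries and leave out the spread between them. How reads that match several precursors were counted is not stated, so these shares also depend on that step, which was not tested.

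The share of mir-378d was 2.04% in BM (1.92 to 2.16), 1.98% in OB (1.61 to 2.41) and 1.92% and 1.49% for Myo-EVs, while FFSS-Myo-EVs had 1.30% and 2.21%. The intervals of BM, OB and the first Myo-EV library overlapped, and the 2 FFSS-Myo-EV libraries (0.982 to 1.70 and 1.78 to 2.71) differed by more than counting error. The share of mir-378b was 0.187% in BM, 0.283% in OB and 0.0920% to 0.248% in the EVs, with intervals that overlapped in all 6 libraries.

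**Figure D4:**
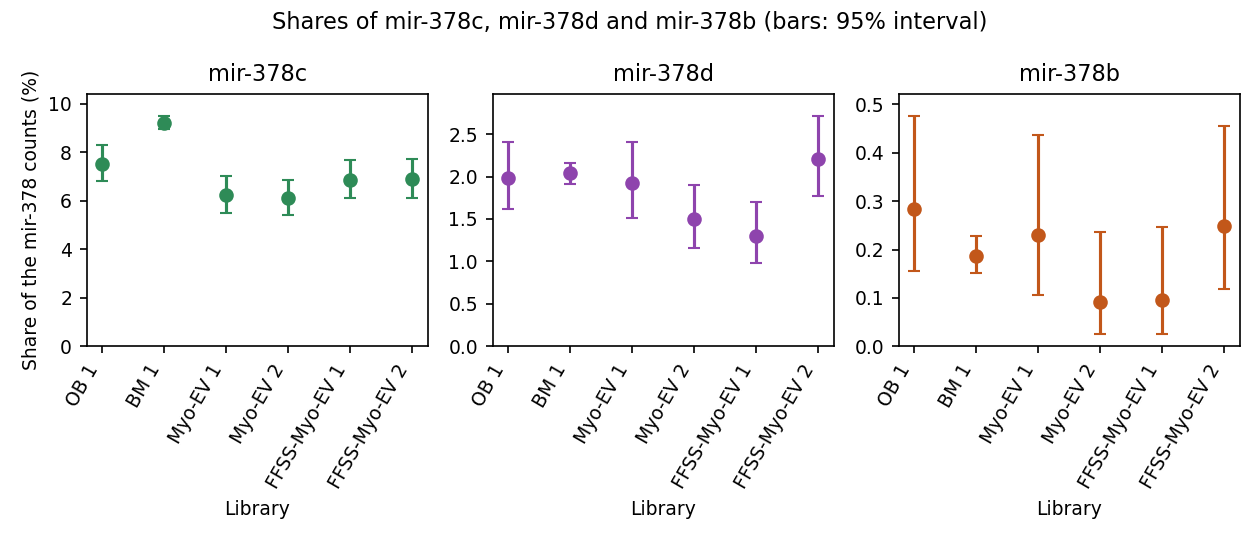
Shares of mir-378c, mir-378d and mir-378b in the summed counts of the 4 mir-378 entries (%), by library, with exact 95% intervals as bars and axes that start at 0. The share of mir-378c is highest in BM, at 9.22%, while the 2 FFSS-Myo-EV libraries differ for mir-378d, at 1.30% and 2.21%.

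The pattern of mir-378a over the 6 libraries was compared with that of 243 other entries with a mean of at least 100, by Pearson's correlation of log2(normalized expression value + 1). The correlation is descriptive, since mir-378a is set apart mainly by a single library, BM, and 19 of the 243 had an r above 0.9. The entry most like it was mir-501 (r = 0.998), with values of 322.5 in OB, 2304.4 in BM and 516.0 and 659.9 for Myo-EVs, while FFSS-Myo-EVs had 520.0 and 525.0. After centring each entry on its own mean, mir-501 and mir-378a differed by at most 0.09 on the log2 scale in any library. The next were mir-486a (r = 0.989), mir-1198 (r = 0.987), mir-30d (r = 0.981) and mir-486b (r = 0.981), of which mir-30d had the smallest excess in BM, at 26641.0 against 9186.1 in OB. The entries mir-486a and mir-486b are copies known from red blood cells and muscle, and their reads may be split or shared. Both reached the mean of 100 only through BM, where they were at 421.4 and 440.5, so their entry into this comparison rests on that library. Ranked by the largest difference after centring, mir-339 took the place of mir-30d, and the other 4 were the same. Of the family itself, mir-378c had an r of 0.989 with mir-378a, mir-378d 0.961 and mir-378b 0.801.

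**Figure D5:**
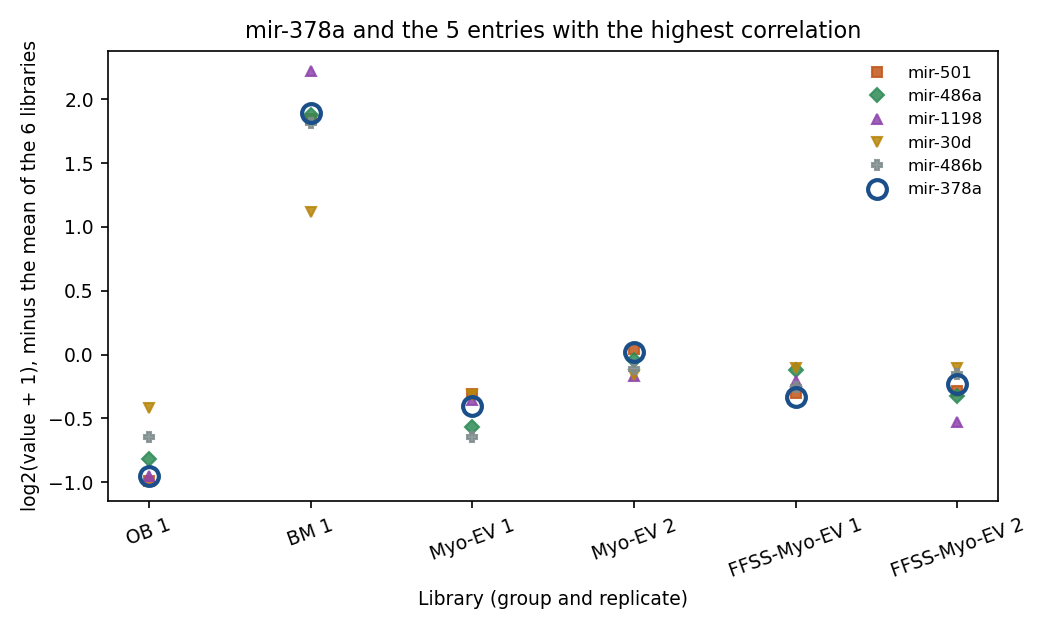
Log2(normalized expression value + 1) minus the mean of the 6 libraries for mir-378a (open circles) and the 5 entries with the highest correlation with it. The symbols stand near each other in the EV libraries, and mir-501 follows mir-378a to within 0.09 on the log2 scale in all 6 libraries.

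Other miRNAs known from the processes in which mir-378a acts were read from the same fit. The background for each list is the 12.1% called higher and 18.4% called lower over all 354 tested entries. Of 29 listed entries of myoblast differentiation, 28 were in the table and 23 were tested, with 3 called higher and 6 called lower after FFSS, and with a median log2 fold change of -0.04 against -0.02 over all 354 entries. The 2 most abundant, mir-27b (log2 fold change 0.24, adjusted p = 0.286 in edgeR) and mir-125b-1 (-0.19, adjusted p = 0.408), did not pass the test. Copies of the same miRNA were counted as separate entries, such as those of mir-26a called higher and those of mir-24 called lower. The 3 entries of the mir-133 family, muscle miRNAs at low level here, were called lower. They were mir-133a-2, at 17.1 and 20.4 without and 6.0 and 4.4 with FFSS (-1.95, adjusted p = 0.000736 in edgeR), its copy mir-133a-1, at 19.1 and 19.2 without and 10.0 and 4.4 with FFSS (-1.51, adjusted p = 0.00647), and mir-133b, at 45.2 and 35.9 without and 13.9 and 12.2 with FFSS (-1.76, adjusted p = 0.000139). Reads may be split between the mir-133a copies. The muscle entry mir-206, at a far higher level, went the other way and was not called. It was at 1968.5 and 2365.4 without and 2610.0 and 2604.9 with FFSS (0.15, adjusted p = 0.420 in edgeR). Whether these changes differ from that of mir-378a was not tested.

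Of 21 listed entries of osteoblast differentiation, all in the table, 12 were tested, with 1 called higher, 1 called lower and a median log2 fold change of 0.01. The entry mir-23a, known as a repressor of the osteoblast factor Runx2, rose from 1751.7 and 1923.5 in Myo-EVs to 2907.9 and 2879.5 with FFSS (0.53, adjusted p = 0.000222 in edgeR). The most abundant, mir-34c, known to target Notch signalling in osteoblasts, was at 21091.4 and 26314.2 without and at 16754.1 and 17526.4 with FFSS and was called lower (-0.59, adjusted p = 0.00187), and mir-30d did not pass (0.01, adjusted p = 0.983). Of 14 listed entries related to PGC-1 coactivators and energy metabolism, all in the table, 10 were tested, with 2 called higher, 1 called lower and a median log2 fold change of -0.08. The entries mir-365-1 (0.69, adjusted p = 0.000131 in edgeR) and mir-30b (0.59, adjusted p = 0.000101) were higher, while mir-365-2, a copy of mir-365-1 whose mature form is nearly or wholly the same, was lower (-0.48, adjusted p = 0.00143), so the split of reads between these copies is uncertain. The most abundant of this list, mir-30a (0.08, adjusted p = 0.768) and mir-27a (0.16, adjusted p = 0.409), did not pass.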

How the data were processed

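Total RNA was extracted with TRIZOL from OB, BM, Myo-EVs and FFSS-Myo-EVs, and small RNA libraries were made from 90 ng of it. The authors grouped the reads by sequence and matched them to miRBase in CLC Genomics Workbench. The deposited table holds whole-number counts without normalization and normalized expression values, a signal that the authors made by scaling the deposited counts. The submitters' processing notes name the build mm10. The miRBase release, the mismatches allowed and the handling of reads with several matches are not given in the sources used here. The 5p and 3p forms are not listed apart.

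Entries with a mean normalized value of at least 10 in the 4 EV libraries were tested on counts with edgeR 4.0.16 in R 4.3.3 (TMM, total counts as library sizes, quasi-likelihood test, Benjamini-Hochberg adjustment, threshold 0.05), which left 2 residual degrees of freedom. A two-sided exact permutation test of 2 against 2 libraries cannot give a p below 0.333. Alternatives were other scalings and filters, DESeq2 1.42.0, limma 3.58.1 with a pseudocount of 1, the replicate block, the summed family and each EV library left out. Intervals came from scipy 1.17.1. Positions were read from GENCODE M21 (GRCm38) and sequences from RefSeq (GRCm38.p6). The sequence of mir-378a is not reported here. Named were the 4 members, the 5 entries most like mir-378a, and from each list the 2 most abundant entries and the 2 called entries with the largest change. The entries mir-133a-1, mir-365-2, mir-451a and mir-122 were added after their values were seen. The same holds for the FFSS results of mir-206, mir-486a and mir-486b and the naming of mir-26a, mir-24, mir-144 and mir-150. The members and lists were chosen with earlier results of these data known.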

Additional observations from a re-analysis of the deposited data

How the results depend on the processing

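Of the 154 alternative values computed, 128 were classed as the same. For a log2 fold change this means the same sign and the same side of the threshold. A ratio stayed within 1 SD of the single-library ratios or, for BM to OB, within its counting interval. A share stayed within its counting interval. A number of entries changed by no more than a set factor, whatever the balance of those called higher and lower. The number of entries called was 108 (43 higher, 65 lower). It was 54 higher and 39 lower with the authors' scaling, 57 and 37 with limma, 49 and 46 with library totals and 51 and 56 with the family summed, and leaving out EV libraries one at a time gave 37 to 120, with 40 without the first and 37 without the second FFSS-Myo-EV library. For mir-378a, no alternative with 2 libraries per group passed the threshold, the fit of the summed family included. Over the left-out libraries, its log2 fold change ranged from -0.43 without the first Myo-EV library to 0.0219 without the second. In those fits 1 Myo-EV library was left and only the FFSS-Myo-EV pair supplied the spread. That of mir-378c turned positive with library totals (0.0321), the authors' scaling (0.0772), a minimum mean of 100 (0.00192) and limma (0.0847), and ranged from -0.24 to 0.17 over the left-out libraries. That of mir-378d ranged from -0.55 to 0.18, positive without the first FFSS-Myo-EV library. The causes were not tested. BM was 8.50 times OB for mir-378a by CPM and 6.16 times with median-of-ratios scaling, and 5.56 and 5.10 times FFSS-Myo-EVs, and FFSS-Myo-EVs were 1.21 times OB with the latter. Every ratio of BM to another condition was at least 2 in all alternatives run. Replicate numbers are shared by the EV groups, but no source says that they pair libraries. Across entries, the first minus the second Myo-EV library had a correlation of 0.20 with the first minus the second FFSS-Myo-EV library. With the replicate block, 110 entries were called (44 higher, 66 lower), and the log2 fold change was -0.21 for mir-378a (adjusted p = 0.248 in edgeR), -0.04 for mir-378c and -0.18 for mir-378d. Depth limits mir-378b, which had 4 to 14 counts outside BM.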
